A study of Rattus norvegicus with 3 samples.

Results

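The miR-34 and miR-449 family was examined in small RNA from 3 libraries, taking the rat-named entries (prefix rno-, as in rno-miR-449a-5p) of miR-34a, miR-34b, miR-34c, miR-449a and miR-449c with either arm. The rule found 8 mature miRNAs among 504 rat-named miRNAs and 919 miRNAs in all. Per the labels, the libraries came from extracellular vesicles (EVs, membrane particles shed into the medium) of primary astrocytes of neonatal wild-type rats. The groups were 1 library after 24 h of IL-1α, TNF-α and complement C1q begun on day 6, a mixture used to make astrocytes inflammatory (the TNF-α library in what follows), 1 library after IL-4 and C1q for the same time (the IL-4 library), and 1 untreated library. These short names stand for the whole mixtures; C1q was in both treatments and not in the control. The labels name 1 batch. Their extraction text also mentions astrocytes that were harvested, which leaves the EV origin of the RNA in some doubt.

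miRNAs of this family are defined by a shared seed, the stretch near the 5′ end that pairs with target mRNAs. The tumour suppressor p53 activates transcription of miR-34a and of the miR-34b/c cluster, and miR-34a restrains the cell cycle and favours apoptosis through targets such as Cdk6, Met and Bcl2. miR-34b/c and miR-449 are most abundant in multiciliated cells of the airway, oviduct, ependyma and choroid plexus, where they help cells leave the cycle and build cilia.

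The mature sequences below, from RefSeq (assembly GRCr8), show which members carry the same seed. Capitals mark the seed, bases 2 to 8.
miR-34a-5p: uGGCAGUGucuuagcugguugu
miR-34b-5p: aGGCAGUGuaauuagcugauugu
miR-34c-5p: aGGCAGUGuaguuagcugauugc
miR-449a-5p: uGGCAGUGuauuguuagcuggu
miR-449c-5p: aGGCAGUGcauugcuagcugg
miR-34a-3p: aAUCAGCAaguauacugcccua
miR-34b-3p: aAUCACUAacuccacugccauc
miR-34c-3p: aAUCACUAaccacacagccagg

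All 8 members matched a RefSeq entry. The seed GGCAGUG was shared by the 5 members of the 5p arm and by no other of 693 rat mature miRNAs in that table. The 3p arms of miR-34b and miR-34c shared AUCACUA, which was also found in those 2 alone. miR-34c-5p and miR-34b-5p were identical at 21 of 23 positions, so reads trimmed at an end may be hard to assign to one of them. miR-449a-5p and miR-34a-5p were identical at 15 of 22 positions counted from the 5′ end, and miR-449a-5p and miR-449c-5p at 18 of 21.

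The genes lie at 3 loci in GRCr8, the build of the sequence table; the build used for the deposited counts is not given in the sources used here. Mir34c and Mir34b are 441 bases apart on chromosome 8, with mature miR-34c-5p at chr8:60306133-60306155 on the minus strand. By position both fall inside Hoatz, a gene of cilia and flagella, next to Btg4. Mir449c and Mir449a are 1436 bases apart on chromosome 2, with mature miR-449a-5p at chr2:46403925-46403946 on the plus strand, inside an uncharacterised lncRNA gene between Gpx8 and Mcidas, which encodes multicilin, a switch for multiciliated cell fate. Mir34a lies on chromosome 5, with mature miR-34a-5p at chr5:165815971-165815992 on the plus strand, inside an lncRNA gene between H6pd and Gpr157. The exon or intron placement was not analysed here.

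The files held 12327301 miRNA counts for the TNF-α library, 7779718 for the IL-4 library and 6318839 for the untreated library. Levels are given as CPM, counts per 1000000 miRNA counts of that library. With 1 library a condition there was no replicate, no test and no SD. Intervals in parentheses after a ratio are exact conditional binomial 95% intervals and those after a level or share are Clopper-Pearson 95% intervals; both cover counting error only, and PCR copies are not independent molecules. A miRNA was called higher or lower where the ratio reached 2-fold, its interval left out 1 and the library with more of it held 50 counts or more. Markers give limited evidence on the labelled source. miR-21-5p, abundant in cultured astrocytes and in many other cells, ranked 1 in all 3 libraries. The 9 astrocyte-list miRNAs summed to 525398, 540056 and 555557 CPM in the TNF-α, IL-4 and untreated libraries, of which miR-21-5p alone held 365214, 386922 and 357921 CPM. The untreated library stood apart in miRNAs of several other cell types. The 11 listed epithelial miRNAs summed to 130 and 124 CPM in the TNF-α and IL-4 libraries, against 3705 CPM in the untreated library. The red cell miRNAs miR-451-5p and miR-144-5p had log2 differences (CPM + 1) from untreated of −7.68 and −4.59 in TNF-α and of −7.73 and −3.61 in IL-4, and the liver miRNA miR-122-5p of −2.99 and −2.54. The mesenchymal miRNAs miR-199a-3p and miR-143-3p went the other way, with log2 differences of 1.59 and 1.33 in TNF-α and of 1.79 and 2.01 in IL-4. The part of all these miRNAs in the results was not tested. The comparison of IL-4 with TNF-α is the one that leaves the untreated library out.

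miR-34c-5p made up most of the family in every library. It had 69311 counts in the TNF-α library, 37948.5 in the IL-4 library and 38569 in the untreated library, which is 5623 CPM (5581 to 5664), 4878 CPM (4829 to 4927) and 6104 CPM (6043 to 6165). It ranked 26, 27 and 27 among the rat-named miRNAs and held 92.0%, 90.9% and 88.5% of the family's counts. The 3 levels lay within 1.25-fold of each other, with the IL-4 library lowest and the untreated library highest. The miR-34c-5p ratio was 0.921 (0.910 to 0.933) for TNF-α over untreated and 0.799 (0.788 to 0.811) for IL-4 over untreated, and neither was called. With DESeq2 size factors the log2 ratio after TNF-α moved to −0.0015, where it was −0.12 by library totals. In bulk RNA, fewer cells or vesicles of a type cannot be told apart from less RNA in each.

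**Figure D1:**
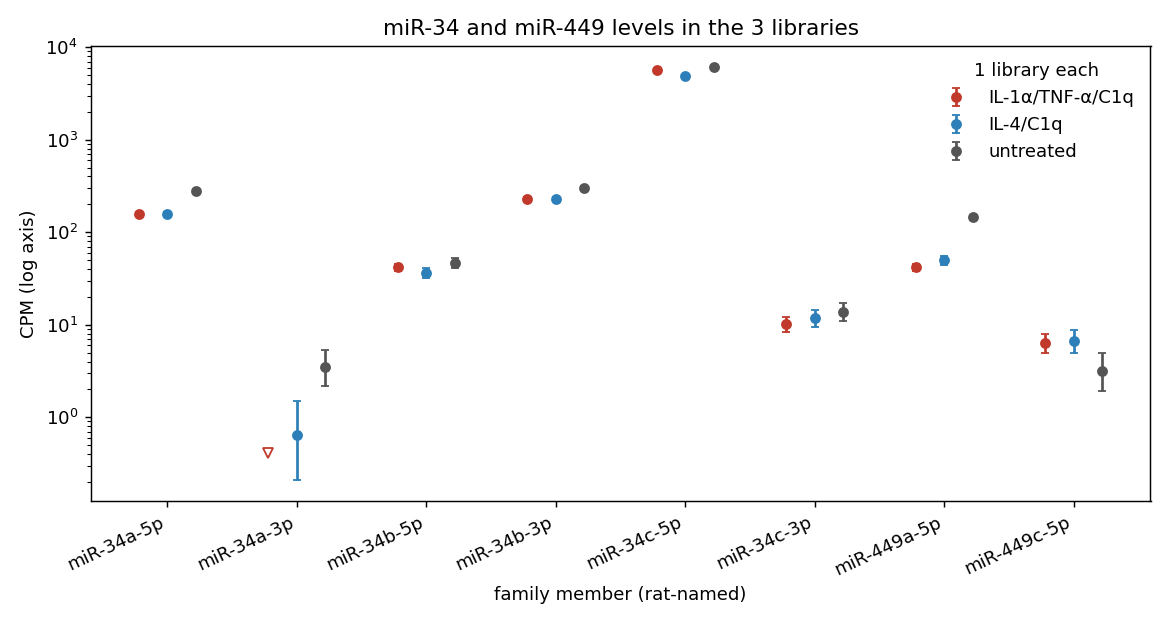
Level of each family member in CPM (log axis) in the TNF-α, IL-4 and untreated libraries, 1 library each, with Clopper-Pearson 95% intervals for counting error; the open triangle marks a count of 0, drawn at the level of 5 counts. miR-34c-5p stands at 4878 to 6104 CPM in all 3, while miR-449a-5p is separated between treated and untreated libraries and miR-449c-5p lies the other way.

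The other products of the miR-34b/c cluster were less abundant, and none of them was called in any comparison. miR-34b-3p had 2823, 1782 and 1914 counts in the TNF-α, IL-4 and untreated libraries, or 229, 229 and 303 CPM. Its levels in the treated libraries differed by less than counting error, with a ratio of 1.00 (0.942 to 1.06) for IL-4 over TNF-α. Against the untreated library miR-34b-3p was 1.32-fold lower after TNF-α (1.25 to 1.40) and 1.32-fold lower after IL-4 (1.24 to 1.41). miR-34b-5p had 513, 282.5 and 295 counts in the TNF-α, IL-4 and untreated libraries, or 41.6, 36.3 and 46.7 CPM. The interval of the miR-34b-5p level in TNF-α overlaps those of both other libraries, while IL-4 and untreated do not overlap. miR-34c-3p, the minor strand of its hairpin, had 125, 92 and 87 counts, or 10.1, 11.8 and 13.8 CPM, in the same order. The 3 intervals of its level overlap one another, while its ratio for TNF-α over untreated was 0.736 (0.556 to 0.980), an interval that leaves out 1, and for IL-4 over untreated 0.859 (0.634 to 1.16).

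The miR-34a branch was less abundant in both treated libraries, short of the 2-fold that a call needs. miR-34a-5p had 1956 counts in the TNF-α library, 1215 in the IL-4 library and 1747 in the untreated library, which is 159 CPM (152 to 166), 156 CPM (148 to 165) and 276 CPM (264 to 290). The treated libraries were level with each other and both lay below the untreated one. miR-34a-5p was 1.74-fold lower after TNF-α (1.63 to 1.86) and 1.77-fold lower after IL-4 (1.64 to 1.91), with a ratio of 0.984 (0.916 to 1.06) for IL-4 over TNF-α. miR-34a-3p, the minor strand, had 0, 5 and 22 counts in the TNF-α, IL-4 and untreated libraries. It is at least 8.58-fold lower in the TNF-α library when the 0 is read as a floor of 5 counts in that library, which corresponds to 0.406 CPM. With under 50 counts in every library it could not be called.

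miR-449a-5p, the main product of the miR-449 locus, had the lowest ratios to the untreated library of the 7 members with enough counts. It had 513 counts in the TNF-α library, 385 in the IL-4 library and 919 in the untreated library, which is 41.6 CPM (38.1 to 45.4), 49.5 CPM (44.7 to 54.7) and 145 CPM (136 to 155). Both treated libraries lay well below the untreated one, and the inflammatory one was the lowest. miR-449a-5p was called lower after TNF-α, by 3.49-fold (3.13 to 3.90), and after IL-4, by 2.94-fold (2.61 to 3.32). Its ratio for IL-4 over TNF-α was 1.19 (1.04 to 1.36), not called.

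miR-449c-5p, from the same locus, differed from miR-449a-5p in direction. It had 78 counts in the TNF-α library, 52 in the IL-4 library and 20 in the untreated library, which is 6.33 CPM (5.002 to 7.90), 6.68 CPM (4.99 to 8.77) and 3.17 CPM (1.93 to 4.89). The treated libraries were close to each other and both lay above the untreated one, at low counts. miR-449c-5p was called higher after IL-4, with a ratio of 2.11 (1.24 to 3.73). After TNF-α its ratio was 1.9991 (1.21 to 3.45), a log2 ratio of 0.9993 that falls just short of 2-fold, and it was called under 5 of 9 ways of scaling or of combining rows.

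**Figure D2:**
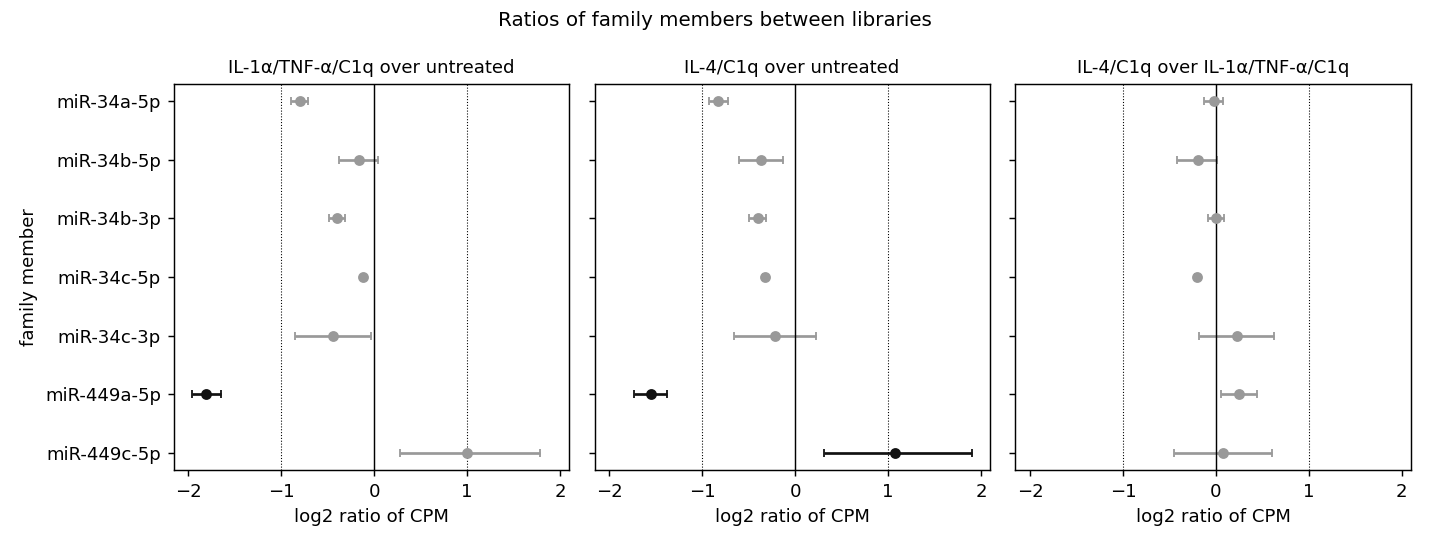
Log2 ratio of CPM with its exact conditional 95% interval for 7 members, in TNF-α over untreated, IL-4 over untreated and IL-4 over TNF-α; black points were called, grey points were not, and dotted lines mark 2-fold. miR-449a-5p lies left of 2-fold in the first 2 panels and miR-449c-5p right of 0, while all 7 members lie within 2-fold in the third. miR-34a-3p, with a count of 0 in a library, is not drawn.

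Read over all members, 1 of 7 with enough counts was called after TNF-α, miR-449a-5p as lower and none as higher. Among 373 rat-named miRNAs tested in that comparison 27.3% were called, 12.3% lower and 15.0% higher. After IL-4 2 of 7 were called, miR-449a-5p as lower and miR-449c-5p as higher, where 30.2% of 358 rat-named miRNAs were called, 14.8% lower and 15.4% higher. In IL-4 over TNF-α 0 of 7 members were called, against 1.11% of 359 rat-named miRNAs, 0.836% lower and 0.279% higher. The members' shares rest on 7 miRNAs and are near these backgrounds. The median log2 ratio, taken as log2 of CPM + 1, was −0.40 over the 7 members after TNF-α and −0.35 after IL-4, beside 0.03 and −0.04 over all rat-named miRNAs tested. Ordered from the lowest ratio, miR-449a-5p stood at place 28 of 373 after TNF-α and 32 of 358 after IL-4, miR-34a-5p at 57 in both, and miR-34c-5p at 153 and 121. Both comparisons use the same untreated library, so any way in which that library is unusual enters both.

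The balance between the branches does not depend on how libraries are scaled. Counts of miR-34b/c together with miR-449 stood to those of miR-34a as 37.5 to 1 in the TNF-α library, 33.2 to 1 in the IL-4 library and 23.6 to 1 in the untreated library. The odds ratio was 1.59 (1.49 to 1.70) for TNF-α over untreated, 1.41 (1.30 to 1.52) for IL-4 over untreated and 0.886 (0.824 to 0.953) for IL-4 over TNF-α. The miR-34a branch thus held a smaller part of the family in the treated libraries: 2.60% (2.48 to 2.71%), 2.92% (2.76 to 3.09%) and 4.06% (3.88 to 4.25%) in the TNF-α, IL-4 and untreated libraries. The miR-449 branch also held a smaller part, with 0.785%, 1.05% and 2.16% in the same order, and the miR-34b/c branch a larger one, with 96.6%, 96.0% and 93.8%.

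The 2 groups linked to ciliated cells differed in their ratios. Relative to miR-34c-5p in the same library, miR-449a-5p was 3.22-fold lower (2.88 to 3.60) in TNF-α than in untreated and 2.35-fold lower (2.08 to 2.65) in IL-4 than in untreated. Relative to miR-34a-5p it was 2.01-fold (1.77 to 2.28) and 1.66-fold (1.44 to 1.91) lower in the same comparisons. The ratio of miR-449a-5p to its neighbour miR-449c-5p was 6.58 in the TNF-α library, 7.40 in the IL-4 library and 45.95 in the untreated library. That is 6.99-fold lower (4.17 to 12.2) after TNF-α and 6.21-fold lower (3.58 to 11.1) after IL-4, a difference that no scaling can change.

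Hairpins differed in which arm was found. In miR-34b the 3p arm dominated, with 84.6% (83.4 to 85.8%) of the hairpin's counts in the TNF-α library, 86.3% (84.8 to 87.8%) in the IL-4 library and 86.6% (85.2 to 88.0%) in the untreated library. In the neighbouring miR-34c the 3p arm held 0.180%, 0.242% and 0.225% in the same order, and in miR-34a 0% (0 of 1956 counts, which allows up to 0.188%), 0.410% and 1.24%. The intervals of the 3p share overlapped between the 3 libraries for miR-34b and for miR-34c, and the 2 hairpins had opposite main arms. The seed AUCACUA thus came mostly from miR-34b and the seed GGCAGUG mostly from miR-34c. Summed over the family, the 5p arms held 5871, 5127 and 6576 CPM in the TNF-α, IL-4 and untreated libraries.

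**Figure D3:**
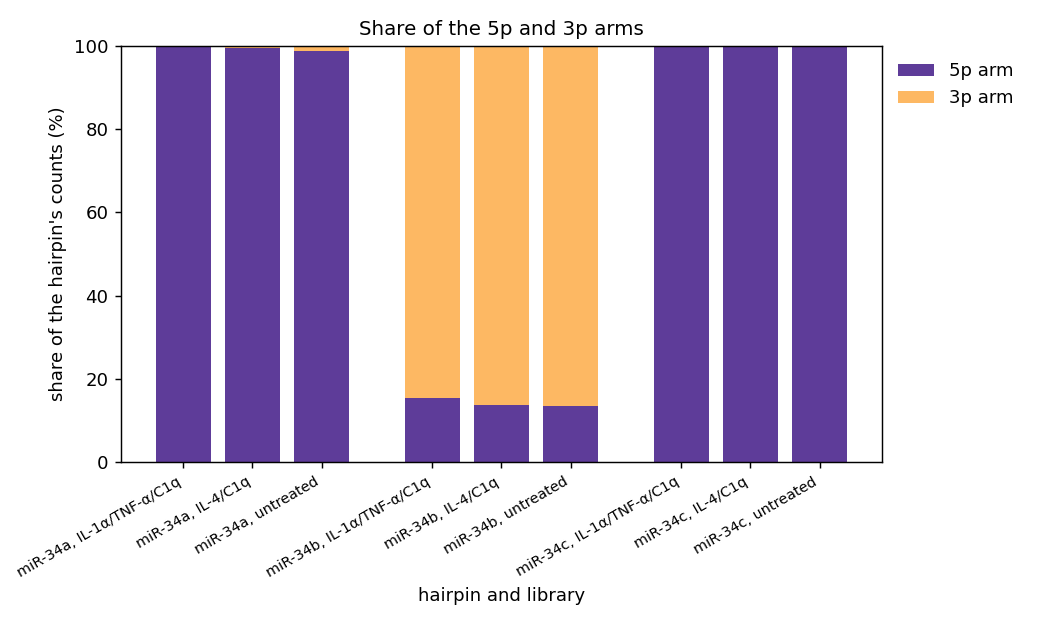
Share of the counts of each hairpin (%) found in its 5p and 3p arm, for rat-named rows of miR-34a, miR-34b and miR-34c in the TNF-α, IL-4 and untreated libraries. The 3p arm takes 84.6 to 86.6% of miR-34b and at most 1.24% of miR-34a and miR-34c.

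Counts of miR-34b-5p were also listed under another species. Rows named for opossum miR-34b-5p held 896, 557 and 626 counts in the TNF-α, IL-4 and untreated libraries, or 72.7, 71.6 and 99.1 CPM, more than the rat-named row. A substituted row of that opossum name had 6, 14 and 15 counts. The prefix names the database sequence that matched and is no sign of opossum RNA. With all these rows counted as 5p, the 3p arm still held 66.6%, 67.6% and 67.2% of miR-34b. The fractional counts of miR-34c-5p and miR-34b-5p in the IL-4 library are what division of reads among rows would give. The split between rat-named and opossum-named rows, and so the level of miR-34b-5p, is uncertain.

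Each of the 8 members had 1 row in the files, so no share of end variants could be computed. The miR-34b-5p row carries the tag L+1R-2 and the miR-449c-5p row the tag R+4, which the files do not explain. Read in the usual way, as bases gained or lost at the left and right ends, the first would begin a base earlier than the RefSeq sequence, which moves the seed. It is shown here for that reason, built from the RefSeq hairpin with bases 2 to 8 in capitals.
miR-34b-5p, tagged form: uAGGCAGUguaauuagcugauu
Its seed AGGCAGU was found in 0 of the 693 rat mature miRNAs of the table. The R+4 tag of miR-449c-5p would leave its seed unchanged.

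Other miRNAs linked to p53 were called at about the share of all rat-named miRNAs. The list held 12 names and 10 were measured, all with enough counts. Its median log2 ratio was −0.04 after both TNF-α and IL-4. After TNF-α 1 was called higher and 1 lower, where 27.3% of all rat-named miRNAs were called, and after IL-4 2 higher and 1 lower, where 30.2% were called. The lower one in both was miR-215, a p53 target of the gut and liver, by 4.06-fold (3.25 to 5.12) after TNF-α and 3.63-fold (2.84 to 4.76) after IL-4. miR-143-3p, which is also a mesenchymal miRNA, was higher by 2.52-fold (2.50 to 2.54) after TNF-α and by 4.04-fold (4.01 to 4.07) after IL-4. miR-145-5p of the same cluster had 117 and 198 CPM in the TNF-α and IL-4 libraries, against 66.8 CPM in the untreated library, and was called after IL-4. miR-22-3p and miR-16-5p, abundant miRNAs of the list, had ratios of 0.915 and 1.34 after TNF-α and 0.896 and 1.22 after IL-4.

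miRNAs of choroid plexus and ependyma, tissues that carry ciliated cells, were also mixed. Of 9 names 6 were measured and 5 had enough counts; their summed level was 207 and 218 CPM in the TNF-α and IL-4 libraries, against 276 CPM in the untreated library, mostly from miR-204-5p. miR-204-5p, abundant in choroid plexus and eye, had 175, 180 and 200.2 CPM in the TNF-α, IL-4 and untreated libraries. miR-211-5p, a close relative of miR-204-5p, was called lower, by 5.14-fold (3.85 to 6.94) after TNF-α and 3.57-fold (2.65 to 4.87) after IL-4. miR-204-3p was called lower in both as well, by 4.08-fold (3.20 to 5.23) and 5.05-fold (3.70 to 6.99). miR-448-3p, from an intron of the serotonin receptor gene Htr2c that choroid plexus expresses, had 5.27, 6.43 and 3.01 CPM and was called higher after IL-4, at 50 counts against 19. miR-1298 of the same locus had 12.7, 16.7 and 12.7 CPM and was not called. miR-1912-3p was at or near 0, with 5, 0 and 0 counts. The list's median log2 ratio was −0.09 after TNF-α and −0.07 after IL-4. Of the 5 with enough counts, 2 were called lower after TNF-α, and 2 lower and 1 higher after IL-4. Over all rat-named miRNAs 12.3% and 14.8% were called lower in these comparisons, and 15.0% and 15.4% higher. Calls among 5 miRNAs are too few for a result about the list.

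The summed epithelial list lay in the direction of miR-449a-5p and differed by more, though not every member did. Of the 11 listed, 9 had enough counts and were called lower after either treatment, most of them reaching the minimum in the untreated library alone, with median log2 ratios over the list of −4.25 and −3.43. Their summed level differed 28.4-fold and 29.9-fold from the untreated library, where miR-449a-5p differed 3.49-fold and 2.94-fold. miR-203a-3p of the list had 87.0 and 74.3 CPM in the TNF-α and IL-4 libraries, against 282 CPM in the untreated library. It was 3.24-fold and 3.80-fold lower, the smallest differences among the 9 called. That is near the size seen for miR-449a-5p, but miR-203a-3p was lowest in the IL-4 library and miR-449a-5p in the TNF-α library. miR-141-3p, one of the defining markers, was at 0 in both treated libraries and miR-429 at 0 in the IL-4 and untreated libraries. Between IL-4 and TNF-α 0 of the 4 epithelial miRNAs with enough counts were called. Over all rat-named miRNAs 1.11% of 359 were called in that comparison, so this count is no result about the list. The part of epithelial RNA, or of RNA from the red cells and liver noted above, in the miR-449a-5p difference was not tested. Of the neuron list 6 of 7 were measured, with medians of −0.47 and −0.61. miR-124-3p, the neuronal miRNA, was called lower in both comparisons and miR-129-5p after IL-4, and none was called higher. Among those not called in either, miR-138-5p had ratios of 1.69 after TNF-α and 1.34 after IL-4, and miR-218a-5p of 1.12 and 1.21. miR-128-3p had ratios of 0.708 and 0.709 in the same order, and miR-137-3p of 0.708 and 0.567. Over all rat-named miRNAs 12.3% and 14.8% were called lower in these comparisons, so these few calls are no result about the list. Of the 9 astrocyte miRNAs 0 were called after TNF-α, and miR-146a-5p alone was called lower after IL-4, with medians of −0.26 and −0.40.

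**Figure D4:**
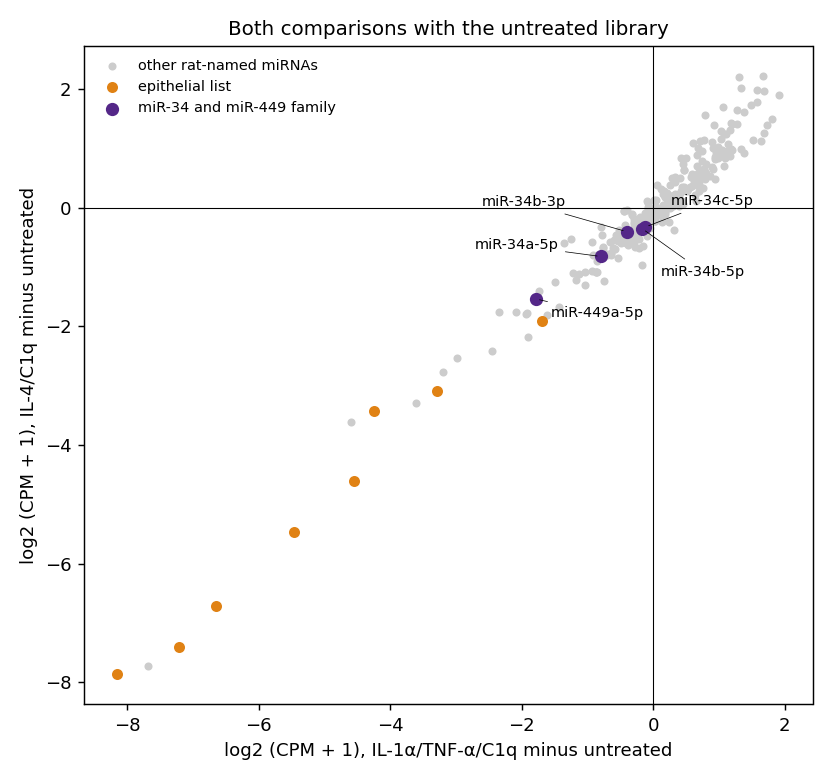
Difference in log2 of CPM + 1 from the untreated library, for the TNF-α library (horizontal) and the IL-4 library (vertical), over rat-named miRNAs with at least 200 counts in a library. Both axes use the same untreated library. The 5 family members lie between miR-34c-5p at −0.12 and −0.32 and miR-449a-5p at −1.78 and −1.54, and most of the epithelial miRNAs lie far below.

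The rat-named miRNAs nearest to each member in that plane were found among 289 with at least 200 counts in a library, by the distance between their pairs of log2 differences. With 3 libraries this is a description of likeness only. Nearest to miR-449a-5p was miR-369-3p, of the Dlk1-Dio3 miRNA cluster, with 130, 153 and 450.1 CPM in the TNF-α, IL-4 and untreated libraries at a distance of 0.01, followed by miR-133a-3p, a muscle miRNA, at 0.15 and miR-215 at 0.27. miR-369-3p was an exception in that cluster, most of whose members in the plane stood above 0 in both comparisons. In TNF-α and IL-4, miR-381-3p stood at 1.48 and 1.73 and miR-127-3p at 1.19 and 1.43. Other exceptions were miR-412-5p at −2.34 and −1.75 and miR-323-3p at −0.78 and −0.46. Nearest to miR-34a-5p were miR-598-3p at 0.02, let-7b-3p at 0.06 and miR-148a-3p at 0.07. miR-34c-5p and miR-34b-5p had the same 3 neighbours, miR-107-3p, miR-504 and miR-30e-5p, at distances of 0.01 to 0.05. miR-34b-3p was nearest to miR-224-5p, miR-9a-5p and miR-32-5p, at 0.05 to 0.10.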

How the data were processed

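Small RNA of 3 libraries was analysed from the submitters' deposited tables. Per the file headers, each row has a raw column, used here as estimated counts, and a normalized column, a signal equal to the raw column times 1 constant a library (0.684 for TNF-α, 1.14 for IL-4, 1.25 for untreated). The sources used here do not give how that constant was set, nor the aligner, counter or build. The deposited estimated counts hold fractions in 140, 151 and 237 of 1480 rows in the TNF-α, IL-4 and untreated libraries. Predicted candidates were left out; rows of a mature name were summed, with substituted rows apart where the plain name has a row. Estimated counts were rounded for intervals (scipy 1.17.1) and for edgeR 4.0.16 TMM factors and DESeq2 1.42.0 size factors, alternatives for scaling only. A count of 0 was bounded with a floor of 5 counts, since whole values under 5 are rare (22 of 822, 13 of 709 and 37 of 1007 rows). The call rule was tried on simulated data that hold counting error only. That trial does not cover spread between cultures, PCR copies or calls near 2-fold at low counts. The members and 5 lists (p53-linked, choroid plexus and ependyma, epithelial, neuron, astrocyte) were chosen with earlier results of these data known. Named miRNAs are all members, the 3 nearest of each member with at least 200 counts, and list members that were called or among the 3 most abundant. Others were added after their values were seen, such as miR-203a-3p, miR-451-5p, miR-144-5p, miR-122-5p, miR-199a-3p, miR-381-3p, miR-127-3p, miR-412-5p, miR-323-3p, miR-138-5p and miR-137-3p.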

Additional observations from a re-analysis of the deposited data

Results flagged for a closer look

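Opossum-named miR-34d-5p, a row outside the rat-named family, had 5 counts in the TNF-α library and 11 in the IL-4 library, against 0 in the untreated library. It stood out as a signal in unused rows above the level of the control library. The counts lie at or near the floor of 5, and the value is given with no reading.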

How the results depend on the processing

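No paired analysis was possible because each group has 1 library, and for the same reason no library could be left out. miR-449a-5p was called lower after both treatments under all 9 ways of scaling or of combining rows, with log2 ratios of −1.82 to −1.69 after TNF-α and −1.57 to −1.38 after IL-4. miR-449c-5p was called higher after IL-4 in all 9 (1.06 to 1.25), and after TNF-α in 5 (0.98 to 1.12): members called higher there were 1, in place of 0, with TMM factors, DESeq2 size factors, totals without miR-21-5p, the authors' column and substituted rows left out, and with a 1.5-fold minimum. A minimum of 10 counts gave 2 members called lower in place of 1 after each treatment, adding miR-34a-3p, and a 1.5-fold minimum also gave 2, adding miR-34a-5p. A minimum of 200 counts left 0 called higher after IL-4, and a 4-fold minimum left 0 called in each direction.

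The summed family had log2 ratios of −0.17 after TNF-α, −0.36 after IL-4 and −0.19 for IL-4 over TNF-α. These moved, in that order, to −0.11, −0.24 and −0.13 with TMM factors, −0.058, −0.19 and −0.13 with DESeq2 size factors, −0.082, −0.19 and −0.11 with the authors' column, and −0.15, −0.31 and −0.16 without substituted rows. Without miR-21-5p in the totals the last 2 became −0.29 and −0.14. DESeq2 size factors shifted every log2 ratio by 0.12 after TNF-α and 0.18 after IL-4, and miR-34c-5p then stood at −0.0015 after TNF-α. Rows of every species prefix, 5p arms alone and the highest row of a name left the odds ratio of the branches within its interval. The miR-34a-3p bound, with a floor of 3 counts chosen after seeing the data, was 14.3-fold. With the opossum-named rows added, also chosen after seeing the data, the log2 ratio of miR-34b-5p was −0.37 after TNF-α and −0.43 after IL-4. Low counts limit miR-449c-5p and miR-34a-3p most.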

Other observations

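Horse-named miR-449b, a name of the same locus that the rule does not take in, had 5 counts in the TNF-α library, 7 in the IL-4 library and 32 in the untreated library, or 0.406, 0.900 and 5.06 CPM. It was lower by 12.5-fold (4.83 to 41.0) after TNF-α and 5.63-fold (2.44 to 15.1) after IL-4, with under 50 counts in every library. The treated counts lie at or near the floor of 5, so the size of these differences is uncertain. Its direction was that of miR-449a-5p and opposite to that of miR-449c-5p.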
